A study of Arabidopsis thaliana with 9 samples.

Results

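The miR395 family of Arabidopsis was described in shoots under 3 iron conditions. Its members are the rows *ath-MIR395a* to *ath-MIR395f* of the deposited sRNA-seq table, chosen by name and not by their values, and they are 6 of 33171 rows, of which 326 are annotated miRNAs. Each condition has 3 libraries, labelled as biological replicates of wild type (Col-0) shoots. All plants were grown with iron for 14 days and then moved to a second medium for 3 days and to a last medium for 24 hours. Fe resupply plants had no iron in the second medium and iron in the last one. The -Fe plants had no iron in either of these media, and +Fe plants had iron in both. No mutant or transgene was involved, and whether replicates came from separate plates is not given in the sources used here. The table holds only small RNAs, so the tissue label could not be checked with mRNA markers. In whole shoots, fewer cells holding an RNA and less of it per cell cannot be told apart.

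MicroRNAs of plants are cut from a folded precursor, the hairpin, and guide cleavage of mRNAs to which they pair along nearly their whole length. miR395 is known in Arabidopsis for its strong induction when sulfate is limiting, which depends on the transcription factor SLIM1. Its known targets are *APS1*, *APS3* and *APS4*, which encode the plastid ATP sulfurylases that activate sulfate, and *SULTR2;1*, which encodes a sulfate transporter of vascular tissue. Sulfur and iron meet in the plant in iron-sulfur clusters and in nicotianamine, which is made from a sulfur amino acid by way of S-adenosylmethionine.

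The mature sequences, read from the RefSeq annotation of the TAIR10.1 genome, are shown because they decide which reads can be given to 1 member. Each is 21 nt long and lies on the 3′ arm of its hairpin. Capitals mark the seed, bases 2 to 8.
miR395a, miR395d and miR395e: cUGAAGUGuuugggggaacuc
miR395b, miR395c and miR395f: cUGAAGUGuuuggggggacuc
The family thus has 1 seed and 2 mature sequences, which differ by A17G, counted from the 5′ end with the base of miR395a first. A read of either mature sequence matches 3 places in the genome, and it cannot be given to 1 hairpin by its sequence.

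All 6 genes are on chromosome 1, in 2 groups of 3. *MIR395a* (AT1G26973) lies at chr1:9363196-9363288 on the minus strand, *MIR395b* (AT1G26975) at chr1:9364471-9364570 on the plus strand, and *MIR395c* (AT1G26985) at chr1:9367080-9367179 on the plus strand. *MIR395d* (AT1G69792) lies at chr1:26269979-26270078 and *MIR395e* (AT1G69795) at chr1:26272776-26272870, both on the minus strand, and *MIR395f* (AT1G69797) lies at chr1:26273858-26273969 on the plus strand. The first group spans 3984 nt and the second 3991 nt, with 16902799 nt between them. Mature sequence does not follow this grouping, since each group holds copies of both sequences.

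How much of the hairpin is unique in the genome differed among the members. Of the 21-nt windows along each hairpin, the number found once in the genome was 57 of 73 for *MIR395a*, 49 of 80 for *MIR395b*, 49 of 80 for *MIR395c*, 72 of 80 for *MIR395d*, 61 of 75 for *MIR395e* and 86 of 92 for *MIR395f*. The hairpins of *MIR395b* and *MIR395c* differ at 3 of 100 positions, and their values are uncertain with respect to each other. The rule by which reads that match several places were placed is not given in the sources used here. The level of each member, and the order of the members, therefore depend on an unknown rule.

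ShortStack, the program that called sRNA clusters from the reads, placed 1 cluster over each hairpin except that of *MIR395c*, which has 0. For *MIR395d* and *MIR395f* the most abundant RNA of the cluster was the mature miRNA itself. As each mature sequence matches 3 hairpins, which cluster it leads depends on how reads were placed. For the other 3 clusters the most abundant RNA was of the 5′ arm. It is shown here because it has 0 nt in common with the mature miRNA.
Most abundant RNA at *MIR395a* (21 nt, hairpin positions 13 to 33): guuccucugagcacuucauug
Most abundant RNA at *MIR395b* (20 nt, hairpin positions 13 to 32): guucccuuuaacgcuucauu
Most abundant RNA at *MIR395e* (20 nt, hairpin positions 13 to 32): guuccucugagcacuucauu
The first and the last of these occur in the hairpins of both *MIR395a* and *MIR395e*, and that of *MIR395b* also occurs in the hairpin of *MIR395c*. The cluster rows repeat the values of *ath-MIR395a*, *ath-MIR395d*, *ath-MIR395e* and *ath-MIR395f*, and the one at *ath-MIR395b* (Cluster_23904) differs from the miRNA row by at most 0.0276. They are the same measurement and not independent of it. Of the 3792 rows that give a sequence without a position, 0 occur in a miR395 hairpin.

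**Figure D1:**
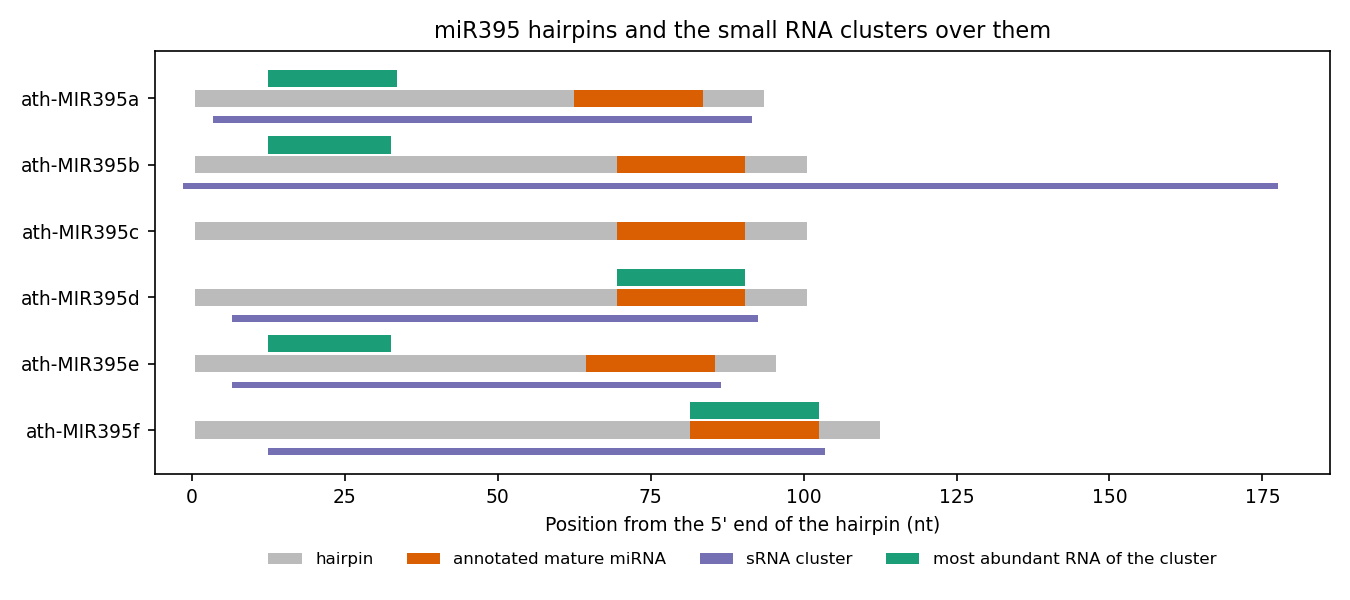
Map of the 6 miR395 hairpins, with position in nt from the 5′ end of each hairpin on the x axis and 1 member per line (grey, hairpin; orange, annotated mature miRNA; purple, sRNA cluster; green, most abundant RNA of the cluster). The green and orange bars coincide at *ath-MIR395d* and *ath-MIR395f*, the green bar lies on the other arm at *ath-MIR395a*, *ath-MIR395b* and *ath-MIR395e*, and *ath-MIR395c* has 0 clusters.

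The deposited values are log2 normalized abundances, 1 per row and library. Sequencing depth is unknown, and no counting error or detection limit can be given. Medians over all rows lay between 3.83 and 3.87 in the 9 libraries, and the correlation of libraries within a condition was 0.994 to 0.996. Their low spread at low abundance resembles that of a regularized logarithm, and on such a scale differences of rows with low abundance are understated.

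The family was of middle abundance among miRNAs. By mean log2 value over the 9 libraries, *ath-MIR395f* ranked 118 of 326 miRNA rows, *ath-MIR395a* 127, *ath-MIR395d* 139, *ath-MIR395b* 143, *ath-MIR395e* 198 and *ath-MIR395c* 260. *ath-MIR395f* was above 78.6% of all rows, *ath-MIR395e* above 34.4% and *ath-MIR395c* above 0.199%. *ath-MIR395c* is thus near the floor of the table.

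To compare the members with each other, levels were expressed per 100 nt of hairpin on the log2 scale. Whether reads rise with the length of the hairpin was not tested. In Fe resupply they were 5.34 for *ath-MIR395f*, 5.07 for *ath-MIR395a*, 4.88 for *ath-MIR395d*, 4.35 for *ath-MIR395b*, 3.24 for *ath-MIR395e* and 0.84 for *ath-MIR395c*. In -Fe these levels were 5.69 for *ath-MIR395f*, 5.51 for *ath-MIR395a*, 5.13 for *ath-MIR395b*, 4.88 for *ath-MIR395d*, 3.31 for *ath-MIR395e* and 0.84 for *ath-MIR395c*. In +Fe they were 5.55 for *ath-MIR395f*, 5.48 for *ath-MIR395a*, 5.17 for *ath-MIR395d*, 4.68 for *ath-MIR395b*, 3.30 for *ath-MIR395e* and 0.82 for *ath-MIR395c*. The order was the same in Fe resupply and +Fe, while *ath-MIR395b* stood above *ath-MIR395d* in -Fe. The libraries of *ath-MIR395f* and *ath-MIR395a* overlapped in each condition. Those of *ath-MIR395a* and *ath-MIR395d* overlapped in Fe resupply, and those of *ath-MIR395a* and *ath-MIR395b*, and of *ath-MIR395b* and *ath-MIR395d*, in -Fe. The other neighbours in the order did not overlap, although *ath-MIR395d* and *ath-MIR395b* came close in Fe resupply, at 4.64 for the lowest library of *ath-MIR395d* and 4.61 for the highest of *ath-MIR395b*. The overlap of *ath-MIR395f* and *ath-MIR395a* depends on the scaling by length. In the deposited values *ath-MIR395f* lay above *ath-MIR395a* in all libraries of Fe resupply and -Fe, and they overlapped in +Fe.

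Differences between conditions were tested with limma in 1 fit over the 9 libraries, and p-values were adjusted over all 33159 rows tested (FDR). To pass, a row had to have an FDR under 0.1 and to differ by 0.5 or more on the log2 scale. Of the 6 members, 1 passed in Fe resupply against -Fe. When +Fe was the reference, 0 passed for either -Fe or Fe resupply. The 3 comparisons share libraries and are not independent of each other.

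*ath-MIR395b* was the member that passed, and it fell in Fe resupply relative to -Fe. As the most abundant RNA of its cluster was of the 5′ arm, this fall cannot be read as one of the mature miRNA. The log2 values of *ath-MIR395b* in replicates 1 to 3 were 4.38, 4.61 and 4.07 in Fe resupply, 5.10, 5.46 and 4.82 in -Fe, and 4.69, 4.64 and 4.71 in +Fe. All Fe resupply libraries lay below all +Fe libraries, and these in turn lay below all -Fe libraries. The mean was 4.35 ± 0.27 in Fe resupply, 5.13 ± 0.32 in -Fe and 4.68 ± 0.04 in +Fe (SD, n = 3 each), and the +Fe libraries were the closest to each other.

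In Fe resupply against -Fe, the log2 fold change of *ath-MIR395b* was -0.78 (SE 0.14, 95% confidence interval -1.06 to -0.49, FDR 0.0123). Over all rows 0.476% passed with lower values in Fe resupply, and 0.528% passed in either direction, so that a pass was rare. Among the 314 miRNA rows tested 4 passed, *ath-MIR395b* included, and all 4 had lower values in Fe resupply. The other comparisons of *ath-MIR395b* did not pass. In -Fe against +Fe its log2 fold change was 0.45 (SE 0.14, 0.16 to 0.74, FDR 0.258), which met neither limit. In Fe resupply against +Fe it was -0.33 (SE 0.14, -0.61 to -0.04, FDR 0.681). Single libraries decided the value of *ath-MIR395b* in -Fe against +Fe. Without -Fe replicate 3 it passed, with a log2 fold change of 0.60 and an FDR of 0.0973. Without -Fe replicate 2 it was 0.28 with an FDR of 0.690.

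*ath-MIR395a*, the neighbour of *ath-MIR395b*, was also lowest in Fe resupply. The most abundant RNA of its cluster was also of the 5′ arm, so this fall cannot be read as one of the mature miRNA. The log2 values of *ath-MIR395a* were 4.91, 5.12 and 4.86 in Fe resupply, 5.37, 5.51 and 5.35 in -Fe, and 5.33, 5.31 and 5.49 in +Fe. All Fe resupply libraries lay below all other libraries, and the -Fe and +Fe libraries overlapped. The log2 fold change in Fe resupply against -Fe was -0.44 (SE 0.10, -0.65 to -0.24, FDR 0.0472), which met the FDR limit and not the limit on the fold change. Without Fe resupply replicate 2 it met both, at -0.52 with an FDR of 0.0428, and the number of members that passed was then 2. The FDR limit was lost without Fe resupply replicate 3 (FDR 0.211) and without -Fe replicate 1, 2 or 3 (0.117, 0.186 and 0.129). Against +Fe the log2 fold change in Fe resupply was -0.41 (SE 0.10, -0.62 to -0.21, FDR 0.175), and in -Fe it was 0.03 (SE 0.10, -0.18 to 0.24, FDR 0.974).

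*ath-MIR395d*, whose cluster was led by the mature miRNA, gave a different picture. Its log2 values were 4.74, 5.25 and 4.64 in Fe resupply, 4.82, 4.99 and 4.84 in -Fe, and 5.18, 5.03 and 5.28 in +Fe. All -Fe libraries lay below all +Fe libraries, and Fe resupply overlapped both because replicate 2 was high. The log2 fold change was -0.28 in -Fe against +Fe (SE 0.13, -0.55 to -0.02, FDR 0.583), -0.29 in Fe resupply against +Fe (SE 0.13, -0.55 to -0.03, FDR 0.701) and -0.01 in Fe resupply against -Fe (SE 0.13, -0.27 to 0.26, FDR 0.991). None of these 3 differences of *ath-MIR395d* passed.

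*ath-MIR395f*, the most abundant member and the other one led by its mature miRNA, varied more between replicates. Its log2 values were 5.42, 5.89 and 5.22 in Fe resupply, 5.76, 6.16 and 5.63 in -Fe, and 5.43, 5.76 and 5.97 in +Fe. The 3 conditions overlapped. The log2 fold change was -0.34 in Fe resupply against -Fe (SE 0.16, -0.67 to -0.01, FDR 0.440), 0.13 in -Fe against +Fe (FDR 0.907) and -0.21 in Fe resupply against +Fe (FDR 0.887).

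The remaining members, *ath-MIR395e* and *ath-MIR395c*, were low and overlapped between all conditions. *ath-MIR395e* had log2 values of 3.04, 3.36 and 3.10 in Fe resupply, 3.18, 3.29 and 3.23 in -Fe, and 3.18, 3.32 and 3.18 in +Fe. *ath-MIR395c* had 0.88, 0.82 and 0.82 in Fe resupply, 0.75, 0.95 and 0.81 in -Fe, and 0.81, 0.85 and 0.80 in +Fe. The 95% confidence intervals of the log2 fold change of *ath-MIR395e* ran from -0.18 to 0.21 in -Fe against +Fe, from -0.25 to 0.14 in Fe resupply against +Fe and from -0.26 to 0.13 in Fe resupply against -Fe. For *ath-MIR395c* the intervals are narrow because the values of rows so near the floor hardly vary, and its abundance cannot be judged from them.

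**Figure D2:**
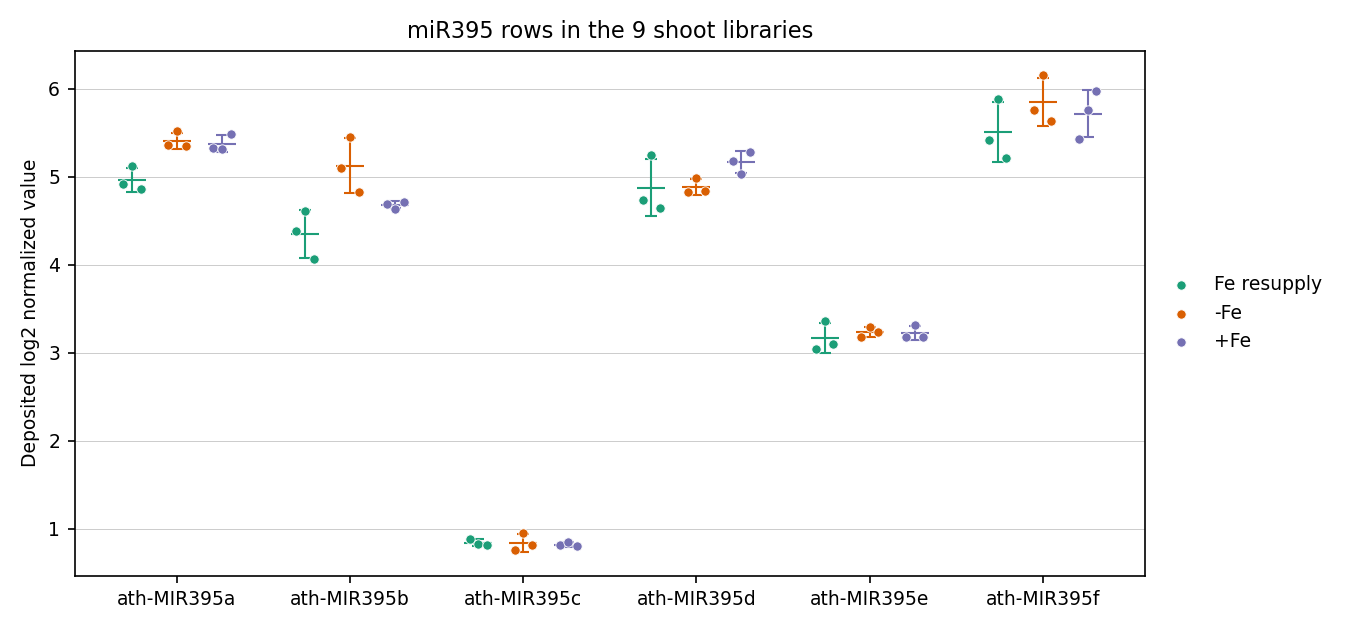
Deposited log2 normalized value (y axis) of each miR395 row (x axis) in Fe resupply (green), -Fe (orange) and +Fe (purple). Points are libraries, long bars are means and whiskers are SD (n = 3). The Fe resupply libraries of *ath-MIR395a* and *ath-MIR395b* lie below those of the other conditions, and *ath-MIR395c* lies between 0.75 and 0.95 throughout.

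Set against all rows, the members that did not overlap were as follows. In -Fe against +Fe, *ath-MIR395b* was higher in all 3 libraries, as were 7.15% of all rows, and *ath-MIR395d* was lower in all 3, as were 6.41% of all rows. In Fe resupply, *ath-MIR395a* and *ath-MIR395b* lay below all +Fe libraries, as did 5.73% of all rows, and below all -Fe libraries, as did 8.70% of all rows.

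The counts at an unadjusted p under 0.05 in limma were 2 of 6 members in -Fe against +Fe, 3 of 6 in Fe resupply against +Fe and 3 of 6 in Fe resupply against -Fe. Over all rows these shares were 8.02%, 6.63% and 11.0% in the same order, while 0.504%, 0.127% and 0.528% of rows passed both limits. With 6 members, some of which share reads, these counts are a description. The median log2 fold change of the members was 0.03 in -Fe against +Fe, -0.25 in Fe resupply against +Fe, and it was -0.20 in Fe resupply against -Fe. The median over all rows was within 0.0022 of 0 in each of these comparisons.

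**Figure D3:**
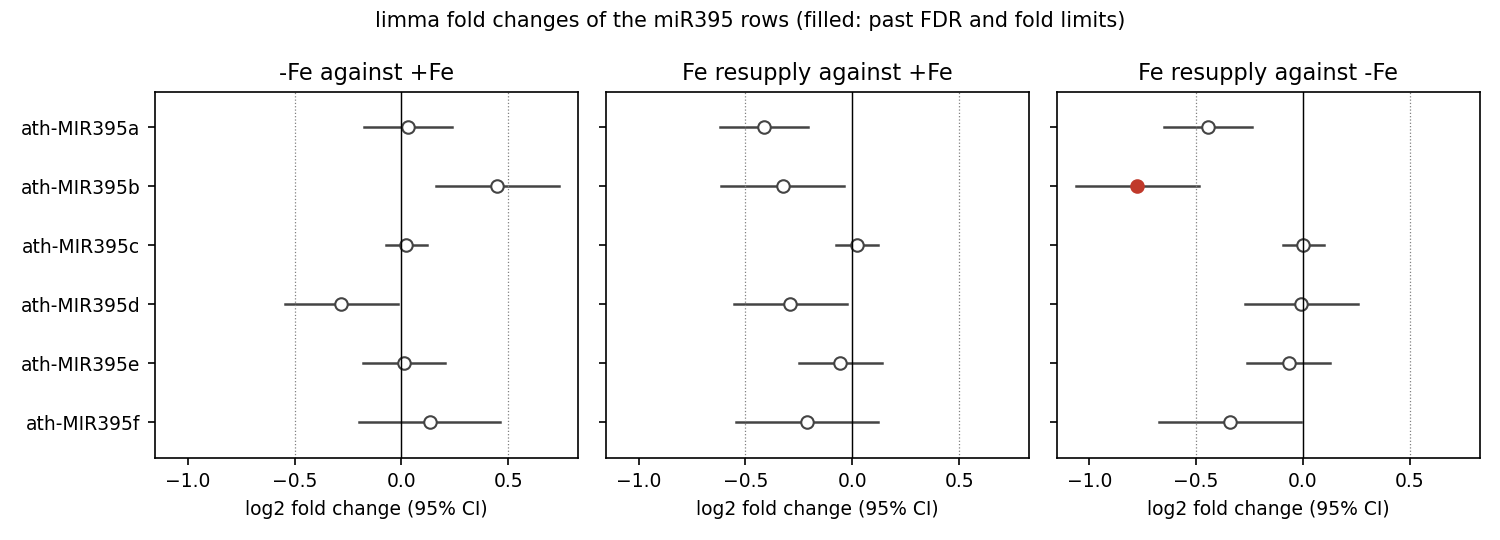
Log2 fold change from limma (x axis, with 95% confidence interval) of the 6 miR395 rows (y axis) in the 3 comparisons, 1 per panel, with dotted lines at 0.5 in either direction. The filled point, *ath-MIR395b* in Fe resupply against -Fe at -0.78, is the only one past both limits.

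As a read of either mature sequence cannot be given to 1 hairpin, the back-transformed values of the 6 rows were also summed. The sum holds both mature sequences and RNAs of the 5′ arm, and is not a level of mature miR395. The sum was 131, 168 and 118 in Fe resupply, 169, 205 and 158 in -Fe, and 156, 163 and 184 in +Fe. The conditions overlapped, with Fe resupply replicate 2 well above the other Fe resupply libraries. The log2 mean of the sum differed by -0.36 in Fe resupply against -Fe (a ratio of 0.781), by -0.28 in Fe resupply against +Fe (0.822) and by 0.08 in -Fe against +Fe (1.05). The SD of the log2 sum was 0.26 in Fe resupply, 0.19 in -Fe and 0.12 in +Fe. The sign in -Fe against +Fe rested on 1 library, with -0.03 without -Fe replicate 2 and 0.15 without -Fe replicate 3. With each library left out, the difference ran from -0.50 to -0.25 in Fe resupply against -Fe and from -0.43 to -0.17 in Fe resupply against +Fe. These sums were not tested.

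The shares of *ath-MIR395b* and *ath-MIR395d* in this sum set the -Fe libraries apart. *ath-MIR395b* gave 15.9%, 14.5% and 14.2% of the family sum in Fe resupply, 20.4%, 21.5% and 17.9% in -Fe, and 16.5%, 15.2% and 14.3% in +Fe. *ath-MIR395d* gave 20.5%, 22.5% and 21.1% in Fe resupply, 16.7%, 15.5% and 18.1% in -Fe, and 23.3%, 20.05% and 21.2% in +Fe. The share of *ath-MIR395b* was higher, and that of *ath-MIR395d* lower, in each -Fe library than in any other library. Within a library, *ath-MIR395b* minus *ath-MIR395d* on the log2 scale was -0.52 on average in Fe resupply (-0.63 to -0.36), 0.24 in -Fe (-0.02 to 0.47) and -0.49 in +Fe (-0.57 to -0.40). This pair was chosen after the values were seen, and the difference is a description with no test.

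Some of the members also varied together from library to library, as a description over 9 libraries that share their normalization and their conditions. Members that can share reads are not separate measurements. Pearson's r was 0.83 between *ath-MIR395a* and *ath-MIR395b*, 0.79 between *ath-MIR395b* and *ath-MIR395f*, and 0.26 between *ath-MIR395b* and *ath-MIR395d*. *ath-MIR395c* had r between -0.06 and 0.32 with the other members. Replicate 2 of Fe resupply and replicate 2 of -Fe had the highest values of their condition for *ath-MIR395a*, *ath-MIR395b*, *ath-MIR395d*, *ath-MIR395e* and *ath-MIR395f*.

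The target genes were then examined for small RNAs of their own. Pairing of the mature sequences was searched on the longest mRNA of each of 31342 genes of TAIR10.1, with a penalty of 1 for a mismatch and 0.5 for a G:U pair. The best site of each known target is shown because it is where miR395 pairs with the sulfate genes. Sites are written as DNA, 5′ to 3′, and capitals mark bases that form Watson-Crick pairs with miR395a, miR395d and miR395e.
*APS1* (AT3G22890), chr3:8113164-8113184, plus strand: GAGTTCCtCCAAACtCTTCAt
*APS3* (AT4G14680), chr4:8414958-8414978, minus strand: GAGTTCCtCCAAACtCTTCAt
*APS4* (AT5G43780), chr5:17591121-17591141, minus strand: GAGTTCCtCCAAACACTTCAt
*SULTR2;1* (AT5G10180), chr5:3193268-3193288, plus strand: aAGTTCtCCCAAACACTTCAa
All 4 sites lie in the coding sequence of exon 1. The site of *APS4* pairs best, at 19 of 21 bases and a penalty of 1.5, and the other 3 pair at 18 of 21 bases with a penalty of 2.5. For the sequence of miR395b, miR395c and miR395f each penalty is higher by 0.5, since A17G turns a Watson-Crick pair into a G:U pair. A penalty of 2.5 or lower was found in 9 of the 31342 genes, 4 of which are these targets. A match is a description of the sequences and not evidence of cleavage.

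At the target genes, the table holds 7 sRNA clusters, of which 3 are at *APS1*, 2 at *APS3* and 2 at *APS4*, and 0 are at *SULTR2;1*. Cluster_11414 at *APS1*, Cluster_3091 at *APS3* and Cluster_20535 at *APS4* cover the pairing site. The most abundant RNA was 17 nt long, the shortest length searched, in Cluster_11414, Cluster_3090, Cluster_3091 and Cluster_20534. It was 20 nt in Cluster_11415, 21 nt in Cluster_11416 and 24 nt in Cluster_20535. Whether these RNAs are fragments of the mRNAs was not tested, and their values are not levels of the target mRNAs. Of the 7 clusters 0 passed in limma in any comparison. At an unadjusted p under 0.05 there were 5 in Fe resupply relative to -Fe, 3 in -Fe relative to +Fe and 0 in Fe resupply relative to +Fe, against 11.0%, 8.02% and 6.63% of all rows.

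The direction of the small RNA values at the targets was nevertheless largely shared in the comparisons that involve -Fe. In Fe resupply against -Fe, 6 of the 7 log2 fold changes were below 0, with a median of -0.20, a range of -0.31 to 0.06 and a lowest FDR of 0.218. In -Fe against +Fe all 7 were above 0, with a median of 0.22, a range of 0.03 to 0.26 and a lowest FDR of 0.356. In Fe resupply against +Fe the median was -0.06, with 4 of 7 below 0. Clusters of 1 gene share their transcript, and both comparisons share the -Fe libraries.

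The clusters over the pairing sites show how small these differences were. Cluster_11414 (chr3:8112781-8113394) had log2 values of 4.88, 5.08 and 4.99 in Fe resupply, 4.98, 5.41 and 5.40 in -Fe, and 5.08, 4.75 and 5.31 in +Fe, and all 3 conditions overlapped. Cluster_3091 (chr4:8414817-8415352) had 3.36, 3.16 and 3.17 in Fe resupply, 3.46, 3.58 and 3.56 in -Fe, and 3.51, 3.20 and 3.52 in +Fe, and its Fe resupply libraries lay below its -Fe libraries. Cluster_20535 (chr5:17590983-17591463) had 2.74, 2.80 and 2.78 in Fe resupply, 2.92, 3.00 and 3.01 in -Fe, and 3.06, 2.76 and 2.84 in +Fe. Here too Fe resupply lay below -Fe, by -0.20 on the log2 scale (SE 0.09, FDR 0.390), and +Fe overlapped both. Of the 7 target clusters, 4 had all Fe resupply libraries below all -Fe libraries, as did 8.70% of all rows.

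Of the other clusters at targets, 1 separated -Fe from +Fe, with all 3 -Fe libraries above, as in 7.15% of all rows. Cluster_11416, in the 3′ part of *APS1*, had log2 values of 4.53, 4.59 and 4.56 in Fe resupply, 4.75, 4.80 and 4.72 in -Fe, and 4.45, 4.44 and 4.60 in +Fe. All -Fe libraries lay above all others, with a log2 fold change of 0.26 in -Fe against +Fe (SE 0.09, 0.08 to 0.45, FDR 0.356) that did not pass. Its most abundant RNA is 21 nt long, while that of the cluster over the pairing site of *APS1* is 17 nt.

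**Figure D4:**
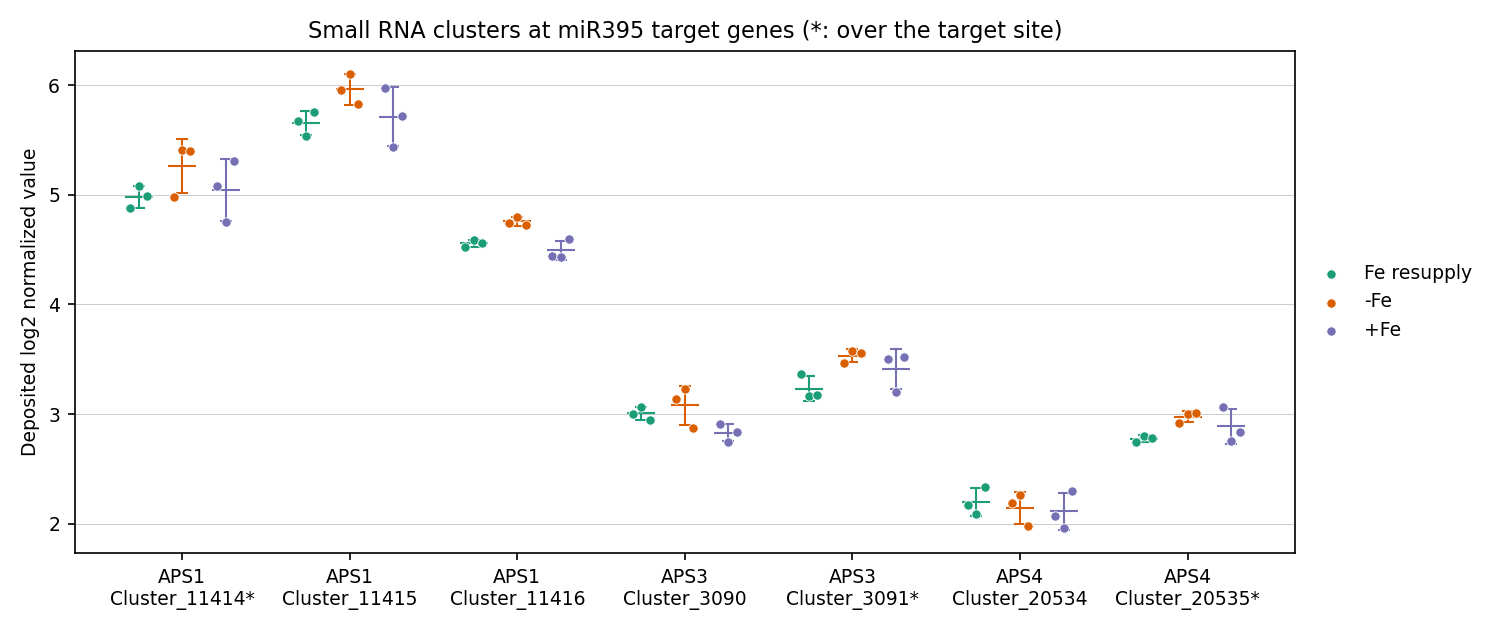
Deposited log2 normalized value (y axis) of the 7 sRNA clusters at *APS1*, *APS3* and *APS4* (x axis) in Fe resupply (green), -Fe (orange) and +Fe (purple). Points are libraries, long bars are means, whiskers are SD (n = 3) and an asterisk marks a cluster over the miR395 pairing site. None of the 7 passed, and the -Fe libraries of Cluster_11416 lie above all others.

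Other genes of sulfate uptake and use were taken as lists from textbook knowledge, with earlier results of these data known. Of 7 sulfate transporter genes 2 have clusters (3 clusters), of 5 assimilation genes all 5 do (12 clusters), and of 8 sulfur starvation markers and regulators 3 do (4 clusters). Of these 19 clusters 0 passed in any comparison in limma. At an unadjusted p under 0.05 there were 8 in Fe resupply relative to -Fe, 2 in -Fe relative to +Fe and 3 in Fe resupply relative to +Fe, against 11.0%, 8.02% and 6.63% of all rows. Their median log2 fold change was -0.10, 0.04 and -0.04 in the same order.

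Values by list are given for Fe resupply against -Fe, and differences between the lists were not tested. The 3 transporter clusters, at *SULTR1;1* and *SULTR2;2*, had log2 fold changes of 0.03 to 0.16 in Fe resupply against -Fe. Cluster_2146, 1 of these 3, lies at chr4:5505213-5509348, mostly outside *SULTR1;1*, which ends at 5506313. The 12 assimilation clusters, at *APS2*, *APR1*, *APR2*, *APR3* and *SIR*, which encode the enzymes that activate and reduce sulfate, ran from -0.33 to 0.29 with a median of -0.06. The 4 clusters at the marker genes *SDI2*, *BGLU28* and *SHM7* of which 2 are at *SHM7*, ran from -0.42 to -0.24, with a median of -0.34 and a lowest FDR of 0.143. All 4 of these log2 fold changes were below 0, and none of them passed.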

How the data were processed

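Small RNAs of 9 shoot libraries were analysed. The authors removed adapters with Cutadapt, found and counted clusters of reads of 17 to 29 nt with ShortStack on TAIR10, and deposited log2 normalized values, which range from -2.15 to 21.61. The form of the normalization is not named and versions are not given in the sources used here. The authors compared raw counts with DESeq2, which was not run here. Column headers gave the condition and replicate number of each library.

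Of 33171 rows, 12 constant ones were left out and no other filter was used. limma 3.58.1 in R 4.3.3 was fitted to the deposited log2 values of the 9 libraries, with eBayes and a trend, and p-values were adjusted by Benjamini-Hochberg over 33159 rows. The limits (FDR under 0.1, difference of 0.5 or more on the log2 scale) are those of the study's methods. Data were simulated for -Fe against +Fe over 33159 rows, with changes placed in rows with a back-transformed mean of 10 or more. Of these changes, 95 of 100 of 0.75 and 100 of 100 of 1.5 were found, with 6 false calls. *ath-MIR395c* and *ath-MIR395e* lie below that mean, and changes smaller than 0.75 were not simulated.

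The members were chosen by name and the gene lists from textbook knowledge, both with earlier results of these data known. The rule for names covered the 6 rows, clusters over their hairpins and at the 4 target genes, clusters at other sulfur genes that passed, and the 5 miRNA rows most correlated with the mean of the members. The marker genes *SDI2*, *BGLU28* and *SHM7* and the assimilation and transporter genes were named as members of their lists. Sequences and gene positions are those of RefSeq for TAIR10.1. Of 28897 nuclear clusters, 26376 (91.3%) hold their most abundant RNA at the deposited position in it. Clusters were given to a gene at an overlap of at least 1 nt on either strand. Python 3.11.15, numpy 2.4.6, pandas 2.3.3 and matplotlib 3.10.9 were used. Low-value filters, an added constant, other scalings, fits and limits, a replicate block and leaving out each library were tried as alternatives.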

Additional observations from a re-analysis of the deposited data

How the results depend on the processing

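*ath-MIR395b* in Fe resupply against -Fe passed in each setting in which it was tested. Its log2 fold change was -0.93 to -0.61 with each library left out in turn, and its FDR at most 0.0697 over all settings. With only rows whose back-transformed mean was 50 or more, the number of members that passed was 0, because *ath-MIR395b*, at 27.3, was not tested. With each library left out, 1 to 2 members passed in Fe resupply against -Fe and 0 to 1 in -Fe against +Fe. With that filter 99 of all rows passed in Fe resupply relative to -Fe, 37 in -Fe relative to +Fe and 13 in Fe resupply relative to +Fe. With each library left out these counts were 97 to 375, 121 to 236 and 26 to 122 in the same order.

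No pairing by replicate number was seen over all rows. Deviations of same-numbered libraries correlated at -0.06 to 0.10 and those of others at -0.12 to 0.16, and 6 of 18 best matches had their own number. Whether same-numbered libraries were grown or processed together cannot be told from this. With a replicate block 212, 227 and 75 rows passed in this order of comparisons, against 175, 167 and 42 without it. Of the members 1, 0 and 0 passed with the block. In -Fe against +Fe *ath-MIR395b* then met the FDR limit (FDR 0.0849 in limma) and not the limit on the fold change (0.45).

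Differences near 0 changed sign and passed nowhere. With quantile normalization *ath-MIR395c* was -0.022 in -Fe against +Fe, and with median centring *ath-MIR395d* and its cluster Cluster_28407 were 0.0090 in Fe resupply against -Fe. With each library left out, log2 fold changes in -Fe against +Fe were -0.022 to 0.087 for *ath-MIR395a* and Cluster_23903, -0.036 to 0.065 for *ath-MIR395c*, -0.016 to 0.057 for *ath-MIR395e* and Cluster_28408, -0.025 to 0.26 for *ath-MIR395f* and Cluster_28409, and -0.043 to 0.13 for Cluster_20534. In Fe resupply against +Fe they were -0.15 to 0.0065 for *ath-MIR395e* and Cluster_28408, -0.21 to 0.067 for Cluster_11414 and -0.19 to 0.076 for Cluster_11415. In Fe resupply against -Fe they were -0.042 to 0.058 for *ath-MIR395c*, -0.19 to 0.11 for *ath-MIR395d* and Cluster_28407, -0.17 to 0.00069 for Cluster_3090 and -0.024 to 0.12 for Cluster_20534. The log2 sum of the 6 rows in -Fe against +Fe was -0.033 to 0.15 with each library left out. Unknown depth limits what can be said of the low rows, and the cause of these changes was not tested.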

Other observations

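Among 308 other miRNA rows, those most like the mean of the 6 miR395 rows over the 9 libraries, by Pearson's r, were *ath-MIR854d* (0.86), *ath-MIR169d* (0.86), *ath-MIR169g* (0.84), *ath-MIR169e* (0.80) and *ath-MIR393a* (0.74). The points share their libraries and normalization, and the correlation is a description. *ath-MIR854d* is a low row, with a mean log2 value of 1.93 and library values from 1.81 to 1.99.

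*ath-MIR169d*, a member of the family that targets NF-YA transcription factors, had log2 values of 7.22, 7.30 and 6.91 in Fe resupply, 7.69, 7.94 and 7.80 in -Fe, and 7.48, 7.39 and 7.74 in +Fe. It fell in Fe resupply relative to -Fe by 0.67 on the log2 scale (SE 0.12, FDR 0.0093 in limma). *ath-MIR169e* had 6.92, 7.03 and 6.62 in Fe resupply, 7.43, 7.65 and 7.59 in -Fe, and 7.38, 7.21 and 7.23 in +Fe, and it fell by 0.70 (SE 0.11, FDR 0.0045) in the same comparison. In both rows the Fe resupply libraries lay below all -Fe libraries, as in 8.70% of all rows. They also lay below all +Fe libraries, as in 5.73% of all rows. *ath-MIR169g* had a log2 fold change of -0.54 in this comparison (SE 0.15, FDR 0.122), and those of *ath-MIR854d* and *ath-MIR393a*, a regulator of auxin receptors, were -0.08 and -0.09, with FDR values of 0.684 and 0.809. None of the 5 rows passed in -Fe against +Fe or in Fe resupply against +Fe.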
